A study of Rattus norvegicus with 9 samples.

Results

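The 9 genes described here mark the medium spiny neuron, the projection neuron of the striatum, and were followed in whole-brain RNA of rats that carry a deletion in Lrap, a long non-coding RNA gene. They were chosen by name as Drd1 and Tac1 of the direct pathway, Drd2, Adora2a and Penk of the indirect pathway, and Ppp1r1b, Rarb, Rgs9 and Pde10a, which both pathways share. Each name matched 1 locus on its own strand, so that 9 of the 114601 loci in the deposited count table were members, and all 9 were among the 39057 loci tested. RNA came from 9 alcohol-naive male rats with no treatment: 3 wild-type Wistar rats from a commercial breeder, 3 rats with 1 copy and 3 with both copies of Lrap shortened by 618 bp with CRISPR/Cas9 (the heterozygotes and homozygotes; Crl:WI-Lrapem1Geh). Separate rats are numbered, but whether wild types and mutants came from shared litters is not stated, and therefore a difference of line cannot be told apart from one of genotype. No age is stated. The RNA was of the whole brain, in which the striatum is a small part. Fewer medium spiny neurons, less RNA per neuron and RNA of the same genes from cells elsewhere in the brain therefore cannot be told apart.

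Medium spiny neurons are inhibitory and receive cortical glutamate and midbrain dopamine. Those of the direct pathway carry the D1 dopamine receptor, which raises cyclic AMP, and release substance P; those of the indirect pathway carry the D2 receptor, which lowers cyclic AMP, together with an adenosine receptor and enkephalin. DARPP-32, encoded by Ppp1r1b, and the phosphodiesterase encoded by Pde10a act on the cyclic AMP signal in both kinds of neuron.

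Promoter sequences of 6 of the 9 genes were found in RefSeq, as 7 windows of the GRCr8 build that run from 250 bases before to 50 bases after each annotated start. The windows of Drd1, Drd2 and Rgs9 hold no match to either sequence marked below and are not shown. The others are shown, for 3 genes. The first is Rarb, which encodes retinoic acid receptor beta and is itself a textbook target of retinoic acid receptors. In its window (chr15:11336142-11336441, plus strand) capitals mark GTTCA, 6 other bases and GTTCA again, a direct repeat searched on both strands that 0.418% of 33469 RefSeq promoter windows hold. Tac1 (chr4:36645333-36645632, plus strand) has 1 match to TGACG, the core of a cyclic AMP response element, read on the opposite strand as CGTCA and set in capitals; 21.2% of windows hold it on either strand.
Rarb: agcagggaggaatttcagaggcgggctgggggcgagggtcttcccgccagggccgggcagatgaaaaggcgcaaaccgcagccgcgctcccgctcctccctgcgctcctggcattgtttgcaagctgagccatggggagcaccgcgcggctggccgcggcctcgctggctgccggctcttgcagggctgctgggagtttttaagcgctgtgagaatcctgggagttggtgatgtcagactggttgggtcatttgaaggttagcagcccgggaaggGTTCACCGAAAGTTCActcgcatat
Tac1: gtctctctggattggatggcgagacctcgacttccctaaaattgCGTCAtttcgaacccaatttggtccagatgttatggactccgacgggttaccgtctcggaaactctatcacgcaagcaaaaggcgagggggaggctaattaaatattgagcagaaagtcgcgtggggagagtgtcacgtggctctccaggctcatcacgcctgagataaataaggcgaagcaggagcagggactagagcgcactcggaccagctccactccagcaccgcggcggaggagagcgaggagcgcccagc

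Pde10a has 2 annotated starts, 264462 bases apart on the minus strand of chromosome 1 in that build. They are shown because the assembled isoforms of the deposited data also began at a proximal and at distal sites, described further on. That assembly uses another build, rn6, and the windows were not matched to its starts. The proximal window (chr1:54501157-54501456) holds no TGACG, and the distal window (chr1:54765619-54765918) holds 2 matches, on opposite strands, in capitals. A match is only a match of letters.
Pde10a proximal: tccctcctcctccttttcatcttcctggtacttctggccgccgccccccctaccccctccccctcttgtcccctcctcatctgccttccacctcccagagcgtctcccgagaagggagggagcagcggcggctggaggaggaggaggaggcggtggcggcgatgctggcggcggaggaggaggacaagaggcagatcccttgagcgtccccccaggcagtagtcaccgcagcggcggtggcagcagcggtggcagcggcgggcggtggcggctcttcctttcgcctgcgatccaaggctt
Pde10a distal: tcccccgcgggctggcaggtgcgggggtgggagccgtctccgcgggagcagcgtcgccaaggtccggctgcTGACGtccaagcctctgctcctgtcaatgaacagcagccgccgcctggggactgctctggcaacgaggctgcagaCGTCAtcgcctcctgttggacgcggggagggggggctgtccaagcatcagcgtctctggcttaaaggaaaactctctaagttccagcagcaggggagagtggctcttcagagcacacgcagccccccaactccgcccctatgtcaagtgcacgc

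The libraries held 27489383 to 46975919 expected counts, and levels are given as CPM, counts divided by a TMM-scaled library size and given on the usual common total. A single library needs to be described before any comparison. Wild-type rat 2 had the lowest level of all 9 rats for 9 of the 9 striatal genes, at 41.6% (Tac1) to 77.4% (Pde10a) of the mean of the other 8 rats. That library was the lowest of the 9 at 24.5% of the 39057 loci tested and at 50.0% of the 16576 tested loci with a gene name. Mitochondrial transcripts took 40.4% of its counts, against 14.8% to 28.1% in the others. The Lrap isoform that contains the deleted stretch followed the labels: 2.58, 1.89 and 2.37 CPM in wild type, 1.01, 1.0 and 1.11 CPM in heterozygotes, and 0.245, 0.389 and 0.401 CPM in homozygotes. Spike-in sequences, RNA added to the samples, had 1 of 2 abundance patterns: wild-type rats 1 and 3 and the 3 heterozygotes shared one, wild-type rat 2 and the 3 homozygotes the other (r across 40 spike-ins of at least 0.992 within a pattern and 0.923 to 0.936 between). The fold changes of the members and of the gene lists against wild type are therefore also given without wild-type rat 2, and the part of the mitochondrial share or the spike-in pattern in it was not tested.

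Per unit of transcript length, in the TPM values the authors deposited, Penk and Ppp1r1b were the most abundant of the set, with means over the 9 rats of 26.2 TPM and 25.9 TPM. Pde10a followed at 8.33 TPM, then Tac1 at 4.95 TPM, Rgs9 at 4.39 TPM and Adora2a at 2.95 TPM. Drd1 (1.89 TPM), Drd2 (1.7 TPM) and Rarb (1.03 TPM) came last. The Pde10a value includes isoforms without annotation, described further on. That of Adora2a includes an assembled isoform of 205 bases with at most 0.146 CPM. By the authors' percent of output, this isoform took 38.2% of Adora2a in heterozygous rat 1 and 0.0% in each wild type. Penk and Ppp1r1b ranged over 17.4 to 41.4 TPM and 16.7 to 43.3 TPM between rats, and did not differ beyond that spread. The same held for Tac1 beside Rgs9 (2.64 to 8.59 and 2.25 to 7.33 TPM), and for Drd1 beside Drd2 (0.98 to 3.19 and 1.03 to 2.59 TPM). The peptide precursor Penk was thus listed far above the receptor Drd2 of the same pathway, and Tac1 above Drd1. All further levels are CPM, which are compared between rats and not between genes.

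None of the 9 genes passed the test in any comparison of genotypes, and homozygous and wild-type rats overlapped for every one. The plot of levels by rat shows this gene by gene, and positions are those of each assembled locus in the deposited rn6 annotation.

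**Figure D1:**
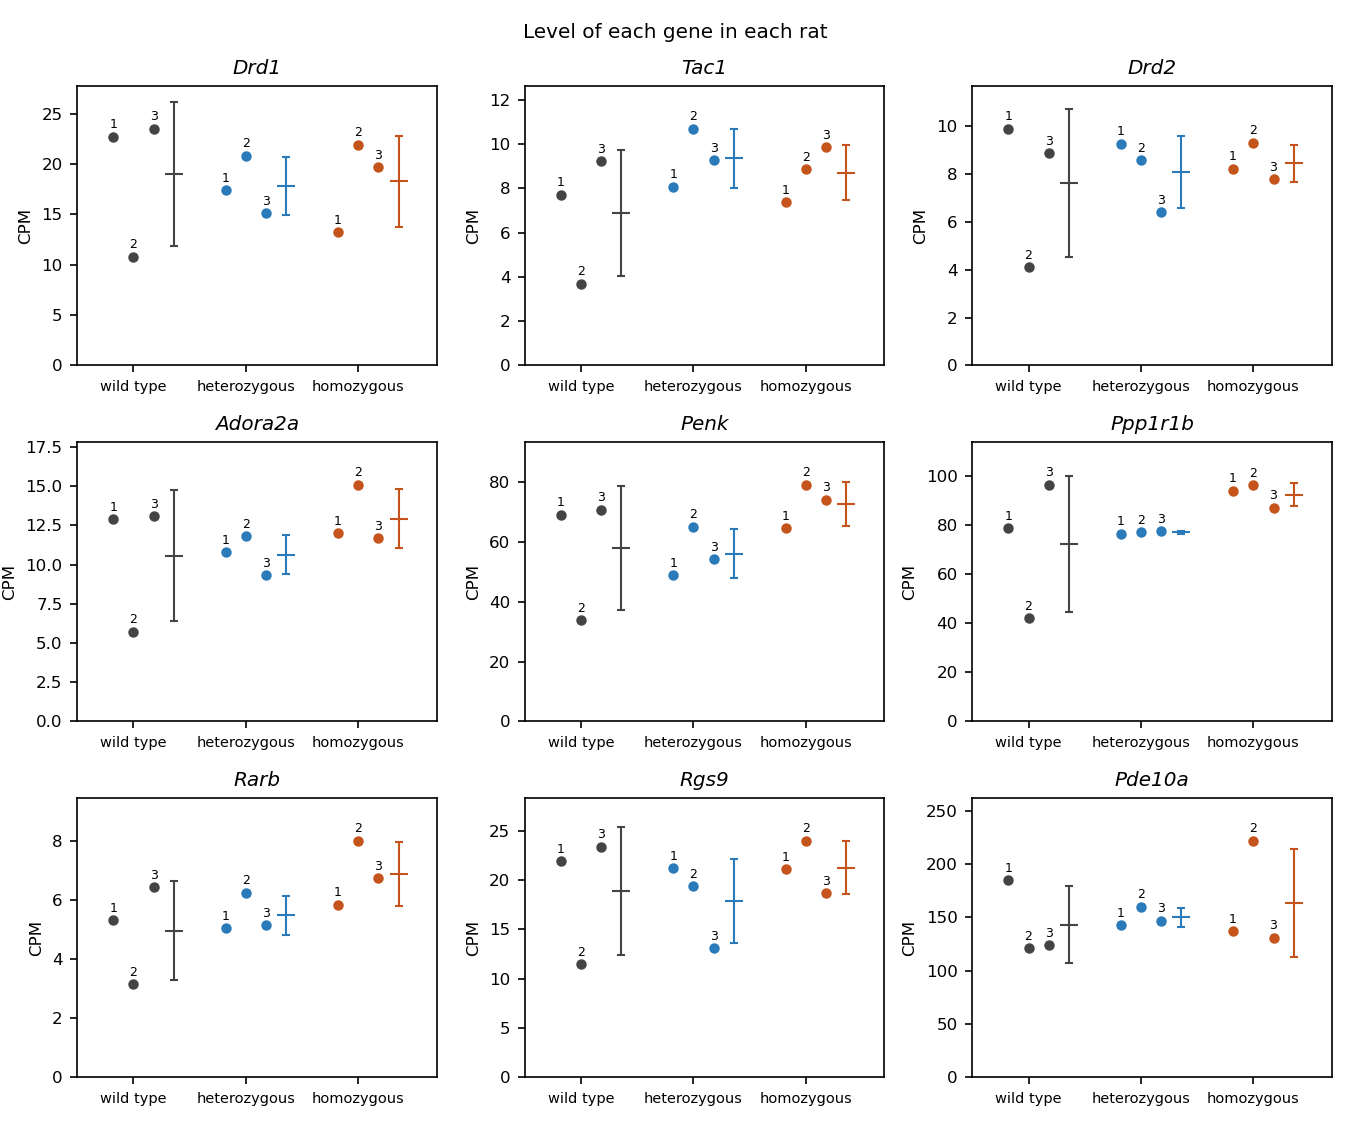
CPM (TMM-scaled) of each of the 9 genes in each rat, by genotype; numbers are the rats' numbers in the labels, and bars give the mean and SD of the 3 rats. Wild-type rat 2 is the lowest point in every panel.

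Drd1 (chr17:11100399-11107746, plus strand, rn6), the D1 dopamine receptor of the direct pathway, measured 22.7, 10.8 and 23.5 CPM in wild-type rats 1 to 3. The heterozygotes had 17.4, 20.8 and 15.1 CPM and the homozygotes 13.2, 21.9 and 19.7 CPM. Wild-type rats 1 and 3 were the highest of the 9 and wild-type rat 2 the lowest, so the wild-type range enclosed every mutant. The log2 fold change of homozygous against wild type was -0.05 ± 0.28 (SE; 95% interval -0.67 to 0.56; edgeR adjusted p = 0.953). Against wild-type rats 1 and 3 alone, the homozygous mean was 79.1% and the heterozygous mean 77.0%.

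Tac1 (chr4:33638709-33646819, plus strand), the precursor of substance P and neurokinin A, measured 7.72, 3.7 and 9.22 CPM in wild type. It measured 8.08, 10.7 and 9.27 CPM in heterozygotes and 7.39, 8.87 and 9.87 CPM in homozygotes. Here the highest rat was heterozygous, and the 3 genotypes overlapped apart from wild-type rat 2. The fold changes were 0.34 ± 0.28 (SE) for homozygous and 0.44 ± 0.28 (SE) for heterozygous against wild type on the log2 scale, with edgeR adjusted p of 0.664 and 0.981. Tac1 was the 1 gene of the set whose heterozygous mean exceeded the mean of wild-type rats 1 and 3 (110.0% of it).

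Drd2 (chr8:53678777-53743642, plus strand), the D2 dopamine receptor of the indirect pathway, measured 9.9, 4.11 and 8.87 CPM in wild type, 9.27, 8.59 and 6.41 CPM in heterozygotes and 8.23, 9.31 and 7.8 CPM in homozygotes. Apart from wild-type rat 2 and heterozygous rat 3, the libraries lay between 7.8 and 9.9 CPM. Its homozygous log2 fold change was 0.15 ± 0.28 (SE; 95% interval -0.47 to 0.77; edgeR adjusted p = 0.863).

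Adora2a (chr20:14265198-14282458, minus strand), the adenosine receptor that opposes D2 signalling in the same neurons, measured 12.9, 5.73 and 13.1 CPM in wild type. Its levels were 10.8, 11.8 and 9.32 CPM in heterozygotes and 12, 15.1 and 11.7 CPM in homozygotes. Homozygous rat 2 was the highest library, and the other homozygotes lay below wild-type rats 1 and 3. The homozygous log2 fold change was 0.29 ± 0.27 (SE; edgeR adjusted p = 0.7), and the homozygous mean was 99.4% of that of wild-type rats 1 and 3.

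Penk (chr5:17056419-17061837, minus strand), the enkephalin precursor, measured 69.1, 33.9 and 70.8 CPM in wild type, 49.0, 65.1 and 54.3 CPM in heterozygotes and 64.6, 79.2 and 74.2 CPM in homozygotes. All 3 heterozygotes were below wild-type rats 1 and 3, and homozygous rat 1 overlapped the heterozygotes. Homozygous against wild type gave a log2 fold change of 0.33 ± 0.24 (SE; 95% interval -0.2 to 0.85; edgeR adjusted p = 0.622), and homozygous against heterozygous 0.37 ± 0.24 (SE; adjusted p = 1.0).

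Ppp1r1b (chr10:86303727-86312762, plus strand), whose product DARPP-32 inhibits protein phosphatase 1 once protein kinase A has phosphorylated it, measured 78.6, 42.1 and 96.3 CPM in wild type. The heterozygotes had 76.3, 76.9 and 77.4 CPM and the homozygotes 93.8, 96.1 and 86.9 CPM. It was the 1 member of 9 whose homozygotes all exceeded all heterozygotes, an arrangement that 4.71% of the tested loci shared. The difference did not pass the edgeR test, with a log2 fold change of 0.26 ± 0.23 (SE; adjusted p = 1.0). Against wild type it was 0.35 ± 0.23 (SE; adjusted p = 0.595), and wild-type rat 3 was the highest library of all.

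Rarb (chr15:9620949-10262599, plus strand) measured 5.32, 3.15 and 6.42 CPM in wild type, 5.05, 6.24 and 5.15 CPM in heterozygotes and 5.84, 8.0 and 6.74 CPM in homozygotes. The 2 highest libraries were homozygous, but homozygous rat 1 lay below wild-type rat 3. At 0.47 ± 0.26 on the log2 scale (SE; 95% interval -0.09 to 1.03) it had the largest homozygous fold change of the set, a fold of 1.39, with an edgeR adjusted p of 0.549. Against wild-type rats 1 and 3 alone the homozygous mean was 117.0%. Rarb was also the thinnest measurement, with 121 to 342 counts per library.

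Rgs9 (chr10:97509971-97582188, minus strand), whose striatal product shortens G protein signalling downstream of D2 and opioid receptors, measured 21.9, 11.5 and 23.4 CPM in wild type, 21.2, 19.4 and 13.1 CPM in heterozygotes and 21.1, 24.0 and 18.7 CPM in homozygotes. Heterozygous rat 3 stood near wild-type rat 2, and the remaining 7 libraries lay between 18.7 and 24.0 CPM. The homozygous log2 fold change was 0.17 ± 0.26 (SE; edgeR adjusted p = 0.826).

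Pde10a, which degrades cyclic AMP and cyclic GMP in both pathways, measured 185.0, 121.0 and 124.0 CPM in wild type, 143.0, 160.0 and 147.0 CPM in heterozygotes and 137.0, 222.0 and 131.0 CPM in homozygotes. Its order of libraries differed from that of the other members, since homozygous rat 2 and wild-type rat 1 stood above the rest and wild-type rats 2 and 3 were nearly level. The homozygous log2 fold change was 0.19 ± 0.22 (SE; 95% interval -0.29 to 0.66; edgeR adjusted p = 0.763).

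Across the set, 8 of 9 genes, beside 71.4% of tested loci with a gene name, had a positive log2 fold change in homozygotes against wild type (-0.05 to 0.47, median 0.29), with 0 of 9 past an adjusted p of 0.05 and adjusted p from 0.549 to 0.953. On the authors' TPM scale 0 of 9 were positive (median -0.39), but there the median was -0.55 over named loci and -0.59 over all loci. In the edgeR fit to counts, 0.0% of all loci tested passed, the median was -0.07, and the median over loci with a gene name was 0.14. At an unadjusted p under 0.05 the count was 0 of 9, beside 9.13% of all loci, and DESeq2 and limma-voom also called 0 of 9. In 0 of 9 did the 3 homozygotes all exceed the 3 wild types, beside 7.29% of loci. Without wild-type rat 2 the median fell to 0.04 and 5 of 9 were positive: the log2 fold changes were then -0.33 for Drd1, 0.04 for Tac1, -0.15 for Drd2, -0.01 for Adora2a, 0.06 for Penk, 0.08 for Ppp1r1b, 0.23 for Rarb, -0.09 for Rgs9 and 0.08 for Pde10a. Without wild-type rat 3 instead, the median was 0.5 and 9 of 9 were positive. In that fit 3 of 9 (Ppp1r1b at 0.64, Rarb at 0.73 and Tac1 at 0.64) had an unadjusted p under 0.05, as had 26.7% of all loci, and 0 of 9 passed after adjustment by edgeR. The size of these differences thus changed with the wild types included. The 95% intervals of the folds began between 0.63 (Drd1) and 0.941 (Rarb) and ended between 1.47 (Drd1) and 2.04 (Rarb). Changes within these intervals remain possible, and their ends are not a limit of detection.

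Heterozygotes against wild type had fold changes of -0.1 (Drd1) to 0.44 (Tac1) with a median of 0.06. Of these, 6 of 9 were positive, beside 64.8% of named loci (4 of 9 with scaling on named loci, 2 of 9 on the TPM scale, where the median of named loci was -0.28). None of the 9 passed (adjusted p 0.981 to 0.999), beside 0.00768% of all loci. Without wild-type rat 2 the median was -0.21 and 1 of 9, Tac1, was positive; without wild-type rat 3 the median was 0.23 and 9 of 9 were. Homozygotes against heterozygotes gave 8 of 9 positive, from -0.1 to 0.37 with a median of 0.25, beside 69.5% of named loci positive (6 of 9 positive with scaling on named loci, 1 of 9 on the TPM scale, where the median of named loci was -0.27). Again 0 of 9 passed, beside 0.00256% of all loci. The slope per deleted allele ran from -0.03 (Drd1) to 0.23 (Rarb) with a median of 0.15. With 3 rats per genotype it is the same test as homozygous against wild type, so its 0 of 9 adds nothing. The fitted levels of Ppp1r1b, Rarb, Drd2, Pde10a and Adora2a were ordered wild type, heterozygous, homozygous, none past the test and Adora2a with only 0.01 between the first pair. Without wild-type rat 2 the heterozygous mean was below wild type in all 5. The share of all loci ordered wild type, heterozygous, homozygous was not computed.

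**Figure D2:**
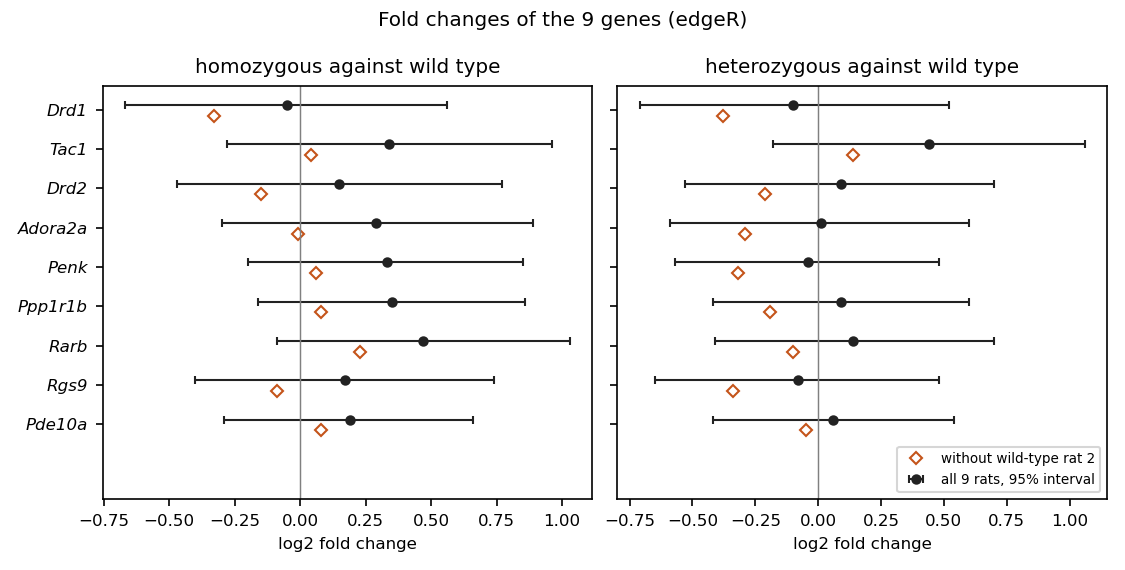
Log2 fold changes of the 9 genes from edgeR, for homozygous and heterozygous against wild type: filled points with 95% intervals use all 9 rats, and open diamonds leave out wild-type rat 2. Every interval includes 0, and each diamond lies to the left of its filled point.

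The comparison was also read within each spike-in pattern, which the labels do not describe. Among the 4 libraries that shared one pattern, the homozygous mean was 1.35 (Pde10a) to 2.36 (Tac1) times the level of wild-type rat 2, which only restates that this library was the lowest for each gene. Among the other 5, the heterozygous mean was 0.77 (Drd1) to 1.1 (Tac1) times that of wild-type rats 1 and 3, below 1 for 8 of 9. All 3 heterozygotes lay below both of these wild types for 5 of 9 genes (Ppp1r1b, Penk, Drd1, Adora2a and Rgs9), an arrangement seen at 6.54% of all loci tested. This split was made after seeing the data, and it leaves out the wild type that was lowest for every member. The genes also vary together, so the 5 are not separate observations and their number was not tested. With the pattern as a covariate, an alternative chosen after seeing the data, edgeR called 6 of 9 genes higher in homozygotes (Ppp1r1b, Penk, Adora2a, Tac1, Rarb and Drd2), beside 4.13% of all loci called higher, and the median over the set was 1.1 on the log2 scale. Since wild-type rat 2 was the only wild type in the homozygotes' pattern, that estimate rests on this library alone, and pattern, library and genotype cannot be told apart in it.

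The balance between the pathways was described as the mean log2(CPM + 0.5) of Drd1 and Tac1 minus that of Drd2, Adora2a and Penk. It was -0.63, -0.53 and -0.45 in wild type, -0.51, -0.33 and -0.33 in heterozygotes, and -0.89, -0.67 and -0.44 in homozygotes. The group means were -0.54 ± 0.0902, -0.39 ± 0.104 and -0.67 ± 0.225 (SD, n = 3 each). The homozygotes spread widest and spanned the whole wild-type range, and wild-type rat 2, low in all 5 genes, was the middle wild type for their balance. The difference of homozygous and wild type, -0.13, was smaller than the homozygous SD and came to -0.02 without homozygous rat 1, whose Drd1 was the second lowest of the 9.

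Drd1 over Drd2, the ratio of the receptors, was 2.29, 2.63 and 2.65 in wild type, 1.88, 2.42 and 2.35 in heterozygotes and 1.6, 2.35 and 2.53 in homozygotes, so the genotypes overlapped. Tac1 over Penk, the ratio of the peptide precursors, behaved differently. It was 0.112, 0.109 and 0.13 in wild type and 0.114, 0.112 and 0.133 in homozygotes, but 0.165, 0.164 and 0.171 in heterozygotes. All 3 heterozygotes thus exceeded all 6 other rats, with a mean of 0.167 ± 0.00379 beside 0.117 ± 0.0114 and 0.12 ± 0.0116 (SD, n = 3 each). This ratio was singled out of 5 computed after its values were seen, and it has no test. Drd1 over Tac1, which compares genes of the same pathway, was 2.55 to 2.94 in wild type, above the 1.63 to 2.15 of heterozygotes and the 1.78 to 2.47 of homozygotes. Drd2 over Adora2a (0.615 to 0.859 over all rats) overlapped between genotypes. Ppp1r1b over Drd1 was 3.47 to 4.1 in wild type and 4.4 to 7.11 in homozygotes, with heterozygotes from 3.7 to 5.14. These groups were likewise not tested, and how often ratios of other genes separate in this way was not computed.

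**Figure D3:**
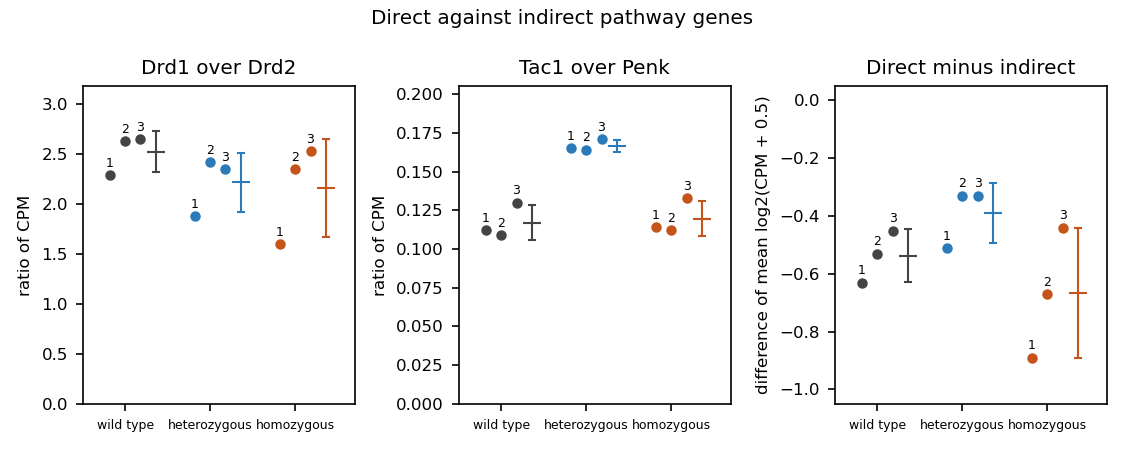
Ratio of Drd1 to Drd2 CPM, ratio of Tac1 to Penk CPM, and the direct minus indirect difference of mean log2(CPM + 0.5), by rat and genotype, with mean and SD. In the middle panel the 3 heterozygotes, at 0.164 to 0.171, lie above the other 6 rats.

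At the Pde10a locus (chr1:52355267-52807177, minus strand, rn6) the assembly joined 12 isoforms. Of these, 4 followed the annotated gene with 23 exons each, 1 from a proximal start at 52544450 and 3 from distal starts up to 262727 bases further upstream. The other 8, with 2 to 4 exons, matched no annotated exon and lay upstream of the proximal start. These unannotated isoforms took 22.6% to 54.6% of the locus counts. The 4 gene isoforms alone measured 115.0, 55.6 and 96.3 CPM in wild type, 91.0, 79.2 and 66.8 CPM in heterozygotes and 86.8, 106.0 and 82.7 CPM in homozygotes. Counted so, wild-type rat 2 was still the lowest library, at 55.6 CPM beside 66.8 CPM in heterozygous rat 3, and the homozygous log2 fold change was 0.04. The heterozygous fold change turned from 0.06 to -0.17, an alternative chosen after seeing the data; neither passed the edgeR test (adjusted p = 0.954 and 0.981).

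The unannotated isoforms measured 70.2, 65.3 and 28.2 CPM in wild type, 51.7, 80.8 and 80.4 CPM in heterozygotes and 50.3, 116.0 and 48.5 CPM in homozygotes. Their highest and lowest libraries differed 4.12-fold, against 2.07-fold for the gene isoforms, and they made up 52.2% of the locus counts in homozygous rat 2. Among gene isoforms, the proximal start gave 47.8, 25.4 and 51.2 CPM in wild type, 44.2, 36.2 and 21.0 CPM in heterozygotes and 23.7, 42.5 and 30.6 CPM in homozygotes. Its share of gene-isoform counts was 41.5% to 53.2% in wild type and 27.3% to 40.1% in homozygotes, without overlap, while heterozygotes (31.4% to 48.6%) spanned both. That share was not tested, and how often other loci separate in this way by isoform share was not computed. For gene levels, homozygotes lay wholly below wild type at 6.09% of loci tested.

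**Figure D4:**
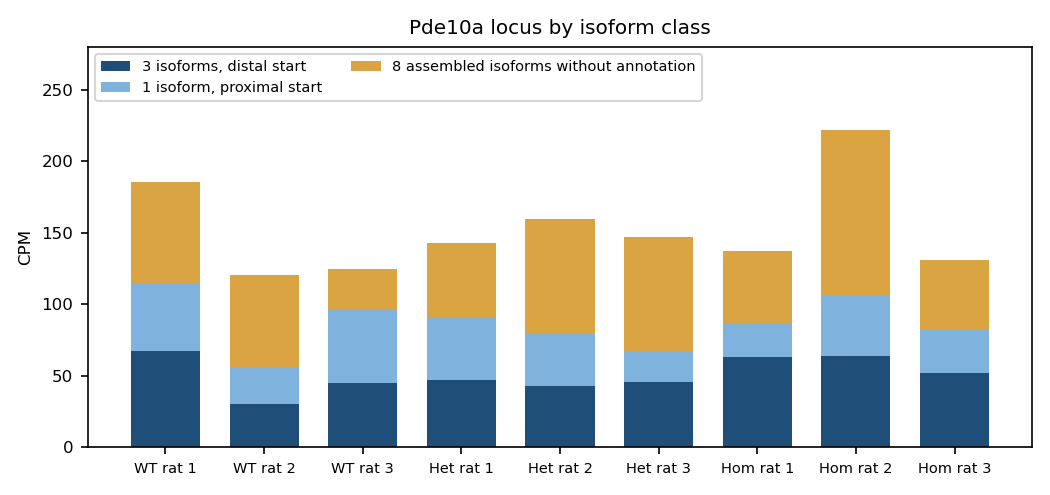
Pde10a locus CPM in each rat, stacked by isoform class: 3 isoforms with a distal start, 1 with a proximal start and 8 assembled isoforms that match no annotated exon. The unannotated part is largest in homozygous rat 2 (116.0 CPM) and smallest in wild-type rat 3 (28.2 CPM).

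Isoforms of other members included annotated and unannotated forms. The Drd2 isoforms differed by exon 6 of 87 bp, which distinguishes the long from the short D2 receptor, and the long form took 49.9% to 70.6% of Drd2 counts. Genotype means were 57.8% ± 11.2, 55.9% ± 7.64 and 60.6% ± 4.55 (SD, n = 3 each) and overlapped. The Tac1 isoforms differed by exon 4 of 45 bp and exon 6 of 54 bp, the latter encoding neurokinin A. The form without exon 4 but with exon 6 was the main one (47.4% to 65.4%). Isoforms with exon 4 took 31.3%, 41.7% and 29.6% of Tac1 counts in wild type, 22.3%, 25.3% and 22.6% in heterozygotes and 33.2%, 33.3% and 28.8% in homozygotes. The heterozygotes were thus the 3 lowest rats, seen after the fact and not tested, at 142 to 530 Tac1 counts per library.

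Rarb had an annotated isoform and an unannotated one from a start farther upstream, which took 38.9%, 18.5% and 41.7% of its counts in wild type, 45.8%, 31.6% and 20.8% in heterozygotes and 42.7%, 43.0% and 51.9% in homozygotes. Wild-type rat 2 was again the lowest library, and the genotypes overlapped. A short Rgs9 isoform with 10 exons, against 19 in the full form, took 4.58% to 19.0% of counts, highest in wild-type rat 2. Of the 4 Adora2a isoforms, none of them an exact match to an annotated transcript, one made up 9.94 CPM in homozygous rat 1 and 2.57 to 5.78 CPM elsewhere, while another fell to 0.0955 CPM in that rat. RSEM divides reads that fit several isoforms by estimation, so these splits are less certain than the totals per gene.

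Part of the members' likeness to each other rested on wild-type rat 2. Over the 9 libraries, the Pearson r of a gene's log2(CPM + 0.5) with the mean of the other members ran from 0.52 (Pde10a) to 0.99 (Adora2a). Without that library it was 0.95 for Adora2a, 0.77 for Penk, 0.74 for Rarb, 0.68 for Rgs9, 0.65 for Drd1, 0.61 for Drd2, 0.46 for Ppp1r1b, 0.39 for Pde10a and 0.01 for Tac1. The coefficient of variation over the rats fell from 20.7% to 10.6% for Ppp1r1b and from 24.3% to 12.6% for Tac1 when that library was left out, but only from 21.5% to 20.9% for Pde10a. The named loci outside the set with the most similar pattern over 9 libraries were Adgrl2 (r = 0.983), Smarcd1 (0.967), Ppp1r1a (0.965), Slc36a1 (0.963), Adcy5 (0.96), Cux1 (0.959), Ddi2 (0.957) and Tcf7 (0.955). These r values share depth and the same low library, and without it they were 0.785 (Ddi2) to 0.917 (Adgrl2). Adgrl2, an adhesion G protein-coupled receptor, had 23.2 CPM in wild-type rat 2 and 32.9 to 42.2 CPM elsewhere.

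Other genes listed for the striatum also gave no call. These lists were chosen by name, and whole-brain RNA does not show how much of each gene came from the striatum. Of 16 genes of striatal second messenger signalling, 0 passed the test in homozygotes against wild type, 13 had positive fold changes, and the median was 0.11, below the 0.14 of all named loci (9 of 16 positive and a median of 0 without wild-type rat 2). Those of smallest p were Rasgrp2, an exchange factor for Rap (0.59 ± 0.26 SE), Pde1b, a calmodulin-dependent phosphodiesterase (0.35 ± 0.18), Rasd2 or Rhes, a striatal small GTPase (0.43 ± 0.25), and Adcy5, the main adenylyl cyclase of the striatum (0.4 ± 0.23), with edgeR adjusted p from 0.544 to 0.563. Adcy5 measured 111.0, 51.0 and 99.3 CPM in wild type, 98.3, 98.7 and 87.4 CPM in heterozygotes and 112.0, 127.0 and 105.0 CPM in homozygotes, again with wild-type rat 2 alone at the bottom.

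Of 13 tested striatal receptors and channels, 0 passed and 10 were positive (median 0.15, and -0.03 without wild-type rat 2). They were led by Kcnj4, an inward rectifier (0.45 ± 0.18 SE), Oprd1, the delta opioid receptor that enkephalin activates (1.07 ± 0.48), Drd3 (0.5 ± 0.33) and Chrm4 (0.42 ± 0.29), edgeR adjusted p 0.544 to 0.604. Oprd1 (0.13 to 0.959 CPM) and Drd3 (0.417 to 1.13 CPM) were low in every rat. Of 12 transcription factors, 0 passed and 10 were positive (median 0.22, and -0.11 without wild-type rat 2). Their 4 of smallest p were Meis2 (0.48 ± 0.21), Ikzf1 (-0.33 ± 0.26), Foxp2 (0.33 ± 0.3) and Rxrg, a partner of Rarb (0.24 ± 0.27), with edgeR adjusted p from 0.544 to 0.757. Of 10 further genes listed for the striatum, 0 passed and 10 were positive (median 0.19, and 0.03 without wild-type rat 2). They were led by Syndig1l (0.66 ± 0.28), Inf2 (0.59 ± 0.28), Lrpap1 (0.28 ± 0.16) and Slc35d3 (0.53 ± 0.5, at only 0.104 to 0.84 CPM), edgeR adjusted p 0.544 to 0.702. Wild-type rat 2 was the lowest library for 10 of 16, 12 of 13, 9 of 12 and 8 of 10 genes of these lists. Genes of dopamine neurons, which innervate the striatum, gave 0 of 7 past the test and 7 of 7 positive (median 0.29, and -0.03 without wild-type rat 2). Among them were Th at 1.07 ± 0.63, Nr4a2 at 0.36 ± 0.24, En1 at 1.05 ± 0.93 (only 0.0702 to 1.86 CPM) and Ddc at 0.26 ± 0.37.

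Markers of some other regions and cell types were also low in wild-type rat 2. In wild-type rat 2 the summed CPM of 10 hypothalamic markers was 12.7, against 27.8 to 42.7 in the others, with Pmch at 0.703 CPM and Agrp at 7.97 CPM. The sum of 7 thalamic markers was 58.9 against 104.0 to 147.0, with Prkcd at 15.8 CPM and Slc17a6 at 9.94 CPM. Cortical and hippocampal markers were not low there, with a sum of 1073.0 in a range of 885.0 to 1321.0, Camk2a at 660.0 CPM and Slc17a7 at 294.0 CPM. The mean log2(CPM + 0.5) of the 9 members minus that of the cortical markers was -1.99 in wild-type rat 2 and -1.14 to -0.71 in the other 8 rats. Of 6 astrocyte markers, 5 were lowest in wild-type rat 2, where their sum was 1126.0 CPM against 1224.0 to 2023.0 CPM (Aldoc 365.0 CPM and Slc1a3 307.0 CPM). The sum of blood markers was highest there, at 691.0 CPM against 246.0 to 663.0 CPM, with Hba-a1 at 325.0 CPM and Hbb at 357.0 CPM. Of these markers, 5 of 6 were lower in homozygotes than in wild type at an unadjusted edgeR p under 0.05. So were 1659 of the 39057 loci tested, and 0 of 6 passed after adjustment. The median log2 fold change of the blood markers was -1.22, and -1.17 without wild-type rat 2, where 0 of 6 were positive. The microglial sum was 83.7 to 110.0 CPM in wild type and 119.0 to 133.0 CPM in homozygotes, and heterozygotes, at 103.0 to 128.0 CPM, overlapped both. Of these genes, 5 of 8 were higher in homozygotes than in wild type at an unadjusted edgeR p under 0.05. So were 1907 of the 39057 loci tested, and 0 of 8 passed after adjustment. The median of the microglial genes was 0.48, and 0.43 without wild-type rat 2, where 8 of 8 were positive. Homozygotes lay wholly above wild type at 7.29% of single loci. Csf1r and C1qa measured 43.2 and 8.77 CPM in wild-type rat 2.

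Cerebellar markers divided the rats along another line: their sum was 59.5 to 62.9 CPM in wild-type rats 1 and 2 and homozygous rat 2, and 185.0 to 619.0 CPM in the other 6; Fat2 ranged from 3.79 to 152.0 CPM and Calb1 from 29.5 to 130.0 CPM. The striatal genes were high in 2 of these 3 rats and low in the third. Of the interneuron list, whose 9 tested genes include Pvalb and Nos1, the sum was 38.7 CPM in wild-type rat 2 and 58.9 to 149.0 CPM elsewhere. Pineal markers, chiefly Tph1 (90.9 and 92.8 CPM), reached sums of 97.3 and 101.0 CPM in the heterozygous rats numbered 2 and 3, with 7.52 CPM or less in each of the others. Of the members, Tac1 was highest in the first of those 2 rats, and no member was highest in the second. The part of any of these regions in the striatal values was not tested.

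**Figure D5:**
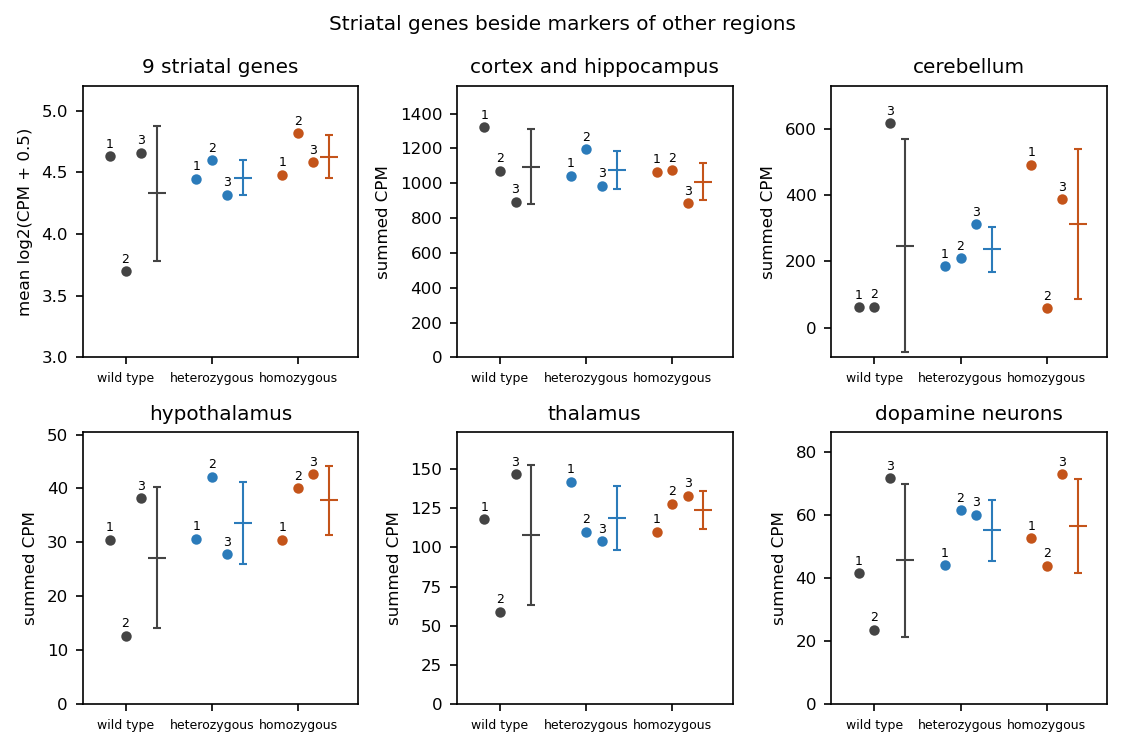
Mean log2(CPM + 0.5) of the 9 striatal genes, and summed CPM of markers of 5 other regions or neuron types, by rat and genotype, with mean and SD. Wild-type rat 2 is lowest for the striatal, hypothalamic, thalamic and dopamine neuron panels and within the range of the others for cortex and hippocampus.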

How the data were processed

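Whole-brain total RNA of 9 rats was depleted of ribosomal RNA and sequenced as stranded paired reads of 100 bases, 4 libraries per lane, per the labels' protocols. The authors deposited RSEM expected counts (estimated counts, which need not be whole), TPM and the percent of each gene's output per isoform, for loci of a StringTie assembly on rn6. Cutadapt, HISAT2, StringTie and RSEM are named in the submitters' processing notes. Versions and whether counting used strand were not found, and loci on the opposite strand of the members held at most 14 counts in a library. The authors' percent column was not tested and is quoted only for an Adora2a isoform. Other isoform shares were recomputed from the expected counts. The deposited GTF coordinates, a unit of their own, gave positions and gene names.

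After rounding to whole numbers, 39057 of 114601 loci passed filterByExpr and were fitted together over all 9 rats with the quasi-likelihood test of edgeR 4.0.16 (TMM scaling, R 4.3.3). P-values were adjusted by Benjamini-Hochberg over all loci tested, with a threshold of 0.05. With 3 rats per genotype the slope per deleted allele is the same test as homozygous against wild type. An exact permutation of 3 against 3 rats cannot go below 0.1, so none is given. The common biological coefficient of variation was 0.277. Depth was 27489383 to 46975919 counts, and 99 spike-in loci stayed out of it. No 2 libraries of a genotype were alike within sampling noise (chi-square per locus of at least 29.3 over 20741 loci).

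The members and gene lists were chosen with earlier results of these data known. Genes named beyond the members are the 4 of smallest unadjusted p in each list, the 8 named loci of most similar pattern, and the 2 of highest CPM, a rank that transcript length affects, of each marker list shown; some list results are not reported here. On simulated counts for homozygous against wild type over 39057 loci with 200 changed, edgeR recovered 0%, 24%, 70% and 80% of loci at folds of 1.5, 2, 4 and 8, with 18 false calls. Alternatives were other scaling, no filter, DESeq2 1.42.0, limma-voom and TPM with limma 3.58.1 as log2(TPM + 0.1), a replicate block, only the genotypes compared, and each rat left out. Those chosen after seeing the data were the spike-in pattern as covariate, the reading within each pattern, Pde10a isoforms that match the gene, and leaving out 2 rats.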

Additional observations from a re-analysis of the deposited data

How the results depend on the processing

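The count of members called stayed at 0 in each comparison under every alternative but the spike-in pattern as a covariate, which gave 6 for homozygous against wild type and for the slope, 9 genes of the other striatal lists, and 2189 loci for homozygous against wild type, 1 for heterozygous against wild type, 5 between the mutant genotypes and 2189 for the slope. In that fit Drd1 turned to 0.76 (homozygous against wild type) and Tac1 to 1.1 (homozygous against heterozygous), and heterozygous against wild type to -0.21 (Drd2), -0.29 (Adora2a), -0.19 (Ppp1r1b), -0.1 (Rarb) and -0.05 (Pde10a).

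Loci called, 0, 3, 1 and 0 in that order, became 6, 5, 2 and 6 without the filter, 33, 18, 6 and 33 with DESeq2, and 2313 (2302 of them lower), 18, 3 and 2313 on the TPM scale. There were 2 loci for homozygous against heterozygous with DESeq2 size factors and with limma-voom, 1 for heterozygous against wild type with TMM factors from named loci, and 7 and 2 (heterozygous against wild type and homozygous against heterozygous) when only the 2 genotypes were fitted. With each rat left out in turn the ranges were 0 to 5, 1 to 28, 1 to 18 and 0 to 5; the 28 and 18 came without heterozygous rat 1, and the 5 without homozygous rat 1.

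The replicate block gave 1 locus for homozygous against wild type and the slope and 2 for homozygous against heterozygous, and changed no member's call. Rats share only a number: 5 of 9 same-numbered pairs had deviations correlated over 0.1 (-0.11 to 0.27), and 4 of 9 libraries correlated best with their own number.

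Directions of single members turned as follows, with no call involved. On the TPM scale, where the median of all loci was -0.59 for homozygous against wild type, that comparison gave -0.34 (Tac1), -0.52 (Drd2), -0.25 (Adora2a), -0.39 (Penk), -0.35 (Ppp1r1b), -0.23 (Rarb), -0.55 (Rgs9) and -0.65 (Pde10a). Heterozygous against wild type gave -0.23 (Drd2), -0.24 (Ppp1r1b), -0.2 (Rarb) and -0.38 (Pde10a), and homozygous against heterozygous -0.32 (Drd1), -0.29 (Drd2), -0.4 (Adora2a), -0.11 (Ppp1r1b), -0.04 (Rarb), -0.11 (Rgs9) and -0.27 (Pde10a). TMM factors from named loci gave -0.04 (Adora2a) and -0.03 (Pde10a) for heterozygous against wild type and -0.03 (Drd1) and -0.01 (Drd2) for homozygous against heterozygous; limma-voom gave 0.02 for Drd1 (homozygous) and for Penk (heterozygous against wild type). Counting only the gene's own isoforms turned Pde10a to -0.17 in heterozygotes. The cause of these turns was not tested.

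With each rat left out, homozygous against wild type ranged from -0.33 to 0.15 (Drd1), -0.15 to 0.37 (Drd2), -0.01 to 0.5 (Adora2a), 0.04 to 0.64 (Tac1), 0.06 to 0.52 (Penk), 0.08 to 0.64 (Ppp1r1b), 0.23 to 0.73 (Rarb), -0.09 to 0.38 (Rgs9) and -0.08 to 0.41 (Pde10a). Heterozygous against wild type ranged from -0.38 to 0.12 (Drd1), -0.21 to 0.31 (Drd2), -0.29 to 0.23 (Adora2a), -0.32 to 0.16 (Penk), -0.19 to 0.38 (Ppp1r1b), -0.1 to 0.41 (Rarb), -0.34 to 0.13 (Rgs9) and -0.05 to 0.3 (Pde10a). Homozygous against heterozygous ranged from -0.11 to 0.22 (Drd1), -0.22 to 0.01 (Tac1), -0.08 to 0.15 (Drd2) and -0.15 to 0.28 (Pde10a). The direct minus indirect difference of homozygous and wild type ranged from -0.24 to -0.02.

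Without wild-type rat 2 and homozygous rat 2 together, homozygous against wild type was -0.23 (Drd2), -0.13 (Adora2a), -0.01 (Penk), -0.19 (Rgs9) and -0.21 (Pde10a), heterozygous against wild type -0.21 (Drd2), -0.29 (Adora2a), -0.19 (Ppp1r1b), -0.1 (Rarb) and -0.05 (Pde10a), and homozygous against heterozygous -0.11 (Drd1), -0.01 (Drd2) and -0.16 (Pde10a). Summing all loci of a name could not differ, since each member had 1. Members had 121 to 9491 counts per library. In the simulation 24% of the loci changed 2-fold were recovered. Those loci were drawn at random from all loci tested, with no library that deviated as wild-type rat 2 did, so 24% is not a rate for the members. Depth and number of rats were not varied.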
